A study of Mus musculus with 3 samples.

Results

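Membrane carriers for glucose, lactate and amino acids were read in sorted mouse cells by taking every gene whose symbol begins with Slc1a, Slc2a, Slc3a, Slc7a, Slc16a or Slc38a and that had a probe set naming that gene alone. The rule found 59 genes of 18193 in the series, read by 123 probe sets, and each gene was represented by its brightest probe set. Of these, 2 match by letters only and encode no carrier, Slc7a6os, which lies beside Slc7a6, and the pseudogene Slc2a4rg-ps. Another 2, Slc3a1 and Slc3a2, are heavy chains that carry Slc7 light chains to the membrane.

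The cells came from A2.snail mouse embryonic stem cells, in which doxycycline switches on Snail, a zinc finger repressor that drives epithelial to mesenchymal transition. All groups carried that inducible gene and grew as embryoid bodies, floating aggregates of differentiating cells, in serum with the secreted Wnt inhibitor DKK1. Sorting at day 3 was for the VEGF receptor Flk1, the product of Kdr. There were 3 arrays, 1 per group: Snail-induced Flk1+ and Snail-induced Flk1- cells, both given 250 ng/mL doxycycline on day 2, and untreated Flk1- cells with no doxycycline. Untreated Flk1+ cells, and doxycycline-treated cells without the Snail gene, were not analysed here.

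Glucose enters most cells through facilitative carriers of the Slc2 family, and lactate and pyruvate leave or enter with a proton through Slc16 carriers. The Slc1 family moves glutamate or small neutral amino acids with sodium, and the Slc38 family moves glutamine and related amino acids with sodium. Slc7 carriers exchange amino acids, the cationic ones (arginine, lysine, ornithine) on their own and the others as pairs with an Slc3 heavy chain. Rapidly dividing embryonic cells depend on both glucose and glutamine uptake.

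Values are deposited intensities on a linear scale, with array medians between 42.4 and 44.6. A gene counted as measured where at least 1 array reached 25.6 intensity units, a floor set at the 40th percentile of the deposited values. That held for 13969 of 18193 genes and for 48 of the 59, of which 38 were above the floor on all arrays. Differences are of log2(intensity + 9.53), which understates those of dim genes, and a gene was counted as apart at 2-fold or more. Where the dimmer value was under the floor, the brighter value over the floor is given as at least that many fold. With 1 array a group no difference has a replicate check, no p-value is given, and the number of arrays limits the precision. The sorted gene Kdr read 404 in Snail-induced Flk1+ cells, 9.73 in Snail-induced Flk1- cells and 10.5 in untreated Flk1- cells, which checks the sort labels. The single Snai1 probe set read 19.8, 13.1 and 29.1 in that order and does not show the induced gene.

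Between the Flk1+ array and the untreated array, 10 of the 48 measured genes lay at least 2-fold apart, 7 lower and 3 higher, or 20.8%; over all measured genes the share was 14.5%, with 6.41% lower and 8.1% higher. Between the Snail-induced Flk1+ and Flk1- arrays there were 4 lower and 1 higher, or 10.4%, against 9.74% of all genes (4.89% lower and 4.85% higher). Between Snail-induced and untreated Flk1- arrays there were 2 lower and 1 higher, or 6.25%, against 4.98% of all genes (2.03% lower and 2.95% higher). The last 2 shares lie near their backgrounds. The first includes Slc1a1 and Slc1a6, above the floor in the untreated array alone, which could only read lower against it. Whether the first share differs from its background was not tested. The median log2 difference of the 48 genes was -0.14, 0.03 and -0.22 in the same 3 comparisons, beside 0.01, 0.0 and 0.04 over all measured genes. For each gene the first log2 difference equals the others added together, and the comparisons share arrays. In all, 11 genes were apart in at least 1 comparison and 37 in none. The share of all genes apart in at least 1 comparison was not computed, so this count has no background.

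**Figure D1:**
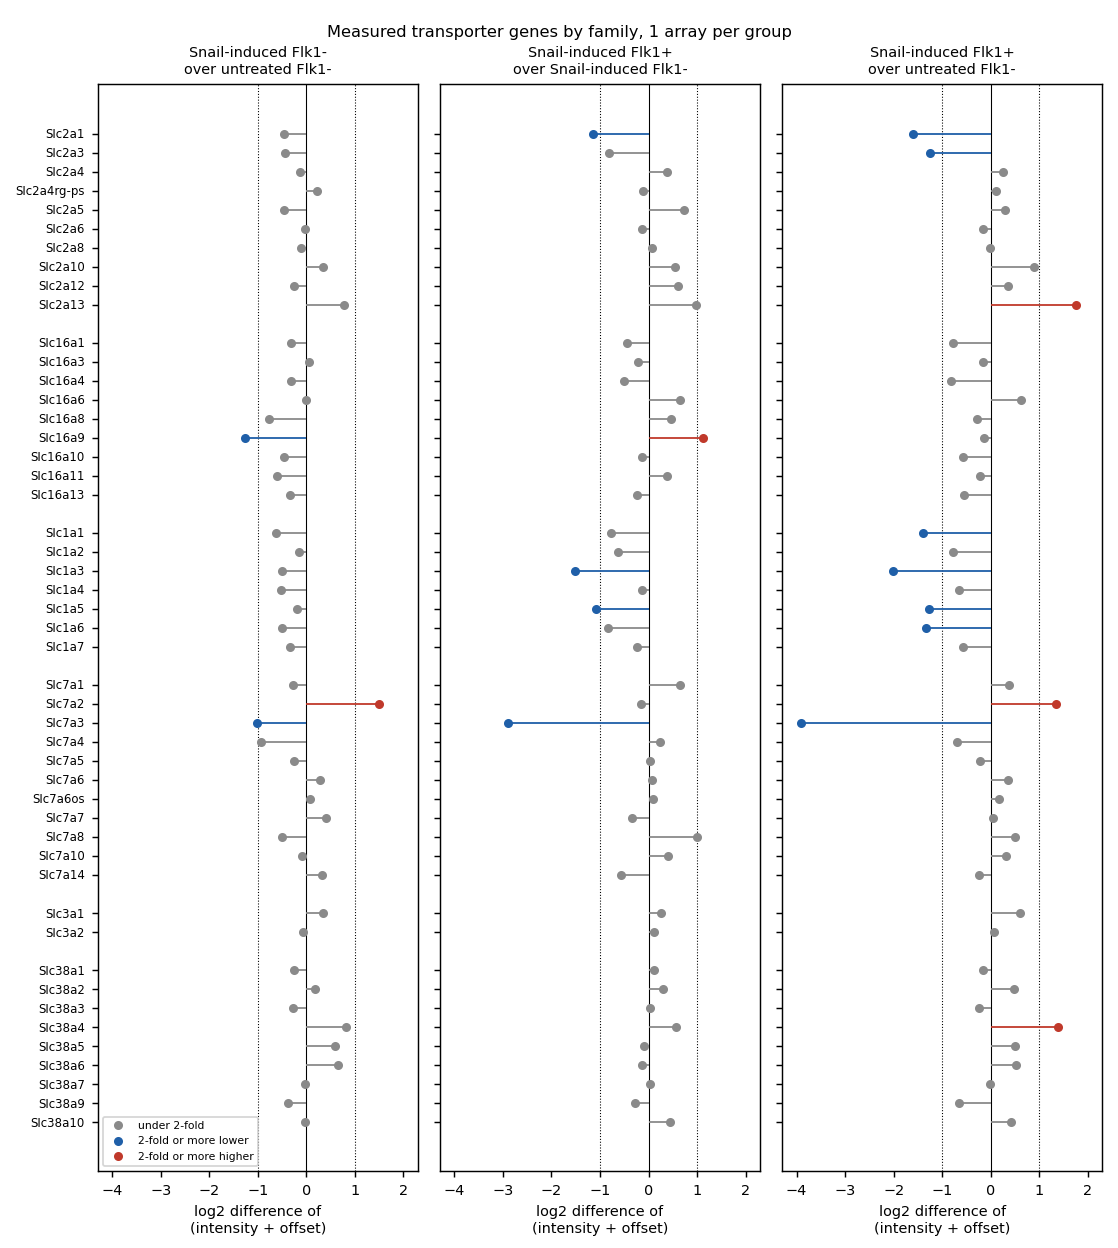
Log2 difference of (intensity + offset) of each of the 48 measured genes, grouped by family from top to bottom (Slc2, Slc16, Slc1, Slc7, Slc3, Slc38), in 3 comparisons from left to right; dotted lines mark 2-fold, and coloured points lie at or beyond it. Slc7a3 lies farthest left in the middle and right panels, at -2.90 and -3.92, and the 7 Slc1 genes lie left of 0 in every panel. However, Slc1a1, Slc1a6 and Slc1a7 are under the floor on both arrays of the middle panel. Above the floor in the untreated array alone, these genes could only lie left of 0 in the other panels.

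Among the Slc2 carriers, the widely used glucose transporters were lower in the Flk1+ array and the myo-inositol carrier was higher. Slc2a1 (GLUT1, the basal glucose transporter of most cells) read 2250 in Snail-induced Flk1+ cells, 4993 in Snail-induced Flk1- cells and 6898 in untreated Flk1- cells. It was 2.21-fold lower in the Flk1+ array than in the Snail-induced Flk1- array and 3.06-fold lower than in the untreated array. Its log2 difference between the 2 Flk1- arrays was -0.47, under 2-fold. The 3 Slc2a1 probe sets had log2 differences between -1.96 and -1.61 for Flk1+ over untreated cells, and between -1.57 and -1.15 for Flk1+ over Snail-induced Flk1- cells. Fewer cells that express a gene and less RNA per cell cannot be told apart in such bulk samples, here and below.

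Slc2a3 (GLUT3, a high-affinity glucose transporter) read 2667 in Snail-induced Flk1+ cells, 4711 in Snail-induced Flk1- cells and 6376 in untreated Flk1- cells. It was 2.39-fold lower in the Flk1+ array than in the untreated array. Its 4 probe sets fell into 2 pairs by size of difference. The brighter pair gave log2 differences of -1.25 and -1.23 against untreated cells, and the dimmer pair gave -2.34 and -2.24. Against Snail-induced Flk1- cells the brightest probe set gave -0.82, under 2-fold, while the mean of all 4 gave -1.15 and the brightest without the suffixes _x_at and _s_at gave -1.55.

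Slc2a13, a proton-coupled myo-inositol carrier with a single probe set, went the other way. It read 92.6 in Snail-induced Flk1+ cells, 42.3 in Snail-induced Flk1- cells and 20.7, under the floor, in untreated Flk1- cells. Flk1+ cells thus had at least 3.62 times the untreated level. Its other 2 differences were 0.98 (Flk1+ over Flk1-, both Snail-induced) and 0.78 (Snail-induced over untreated, both Flk1-), both under 2-fold; the first passed it with arrays centred, with no offset or with values raised to the floor, and the second with no offset.

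The other measured Slc2 genes stayed within 2-fold in all comparisons. Slc2a10 had the largest log2 difference of these, 0.90 between the Flk1+ and the untreated array, with 46.9 in Snail-induced Flk1+ cells, 29.2 in Snail-induced Flk1- cells and 20.8 in untreated Flk1- cells. Slc2a8, an intracellular sugar carrier, read 563 in Snail-induced Flk1+ cells, 535 in Snail-induced Flk1- cells and 573 in untreated Flk1- cells, and its 3 differences lay between -0.10 and 0.07. Slc2a4 (GLUT4, the insulin-regulated transporter of muscle and fat), the fructose carrier Slc2a5, Slc2a6, Slc2a12 and the pseudogene Slc2a4rg-ps had differences between -0.46 and 0.74. The liver and islet transporter gene Slc2a2 and the urate carrier gene Slc2a9 were under the floor on all arrays.

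The promoters of Slc2a1 and Slc2a13 are shown because these genes lay at least 2-fold apart in opposite directions between the Flk1+ and untreated arrays. Each runs from 250 bases before to 50 bases after an annotated start (RefSeq, GRCm38.p6), 5′ to 3′ on the gene's strand. The motifs searched on both strands were CAGGTG (the E-box that Snail binds), ACGTG (the core of hypoxia response elements) and TGATGNAA (an element of ATF4 targets). Capitals mark ACGTG in Slc2a1, and CAGGTG on the reverse strand, read as CACCTG, in Slc2a13.
Slc2a1, chr4:119108495-119108794, plus strand: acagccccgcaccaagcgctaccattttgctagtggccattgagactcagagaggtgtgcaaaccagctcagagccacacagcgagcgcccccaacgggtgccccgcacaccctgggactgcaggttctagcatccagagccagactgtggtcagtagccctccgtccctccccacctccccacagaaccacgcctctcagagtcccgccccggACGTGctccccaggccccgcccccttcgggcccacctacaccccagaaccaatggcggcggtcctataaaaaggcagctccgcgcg
Slc2a13, chr15:91573212-91573511, minus strand: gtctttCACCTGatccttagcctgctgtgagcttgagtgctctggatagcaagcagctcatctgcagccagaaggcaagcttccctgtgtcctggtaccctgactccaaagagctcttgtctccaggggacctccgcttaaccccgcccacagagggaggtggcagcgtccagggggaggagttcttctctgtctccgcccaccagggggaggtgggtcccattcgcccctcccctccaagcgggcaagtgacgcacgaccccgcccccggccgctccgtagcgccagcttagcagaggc
The match in Slc2a1 begins at position -36 from the start, and that in Slc2a13 at -244. Of 32851 promoters of that length, 20.2% hold CAGGTG, 19.6% ACGTG and 3.97% TGATGNAA.

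**Figure D2:**
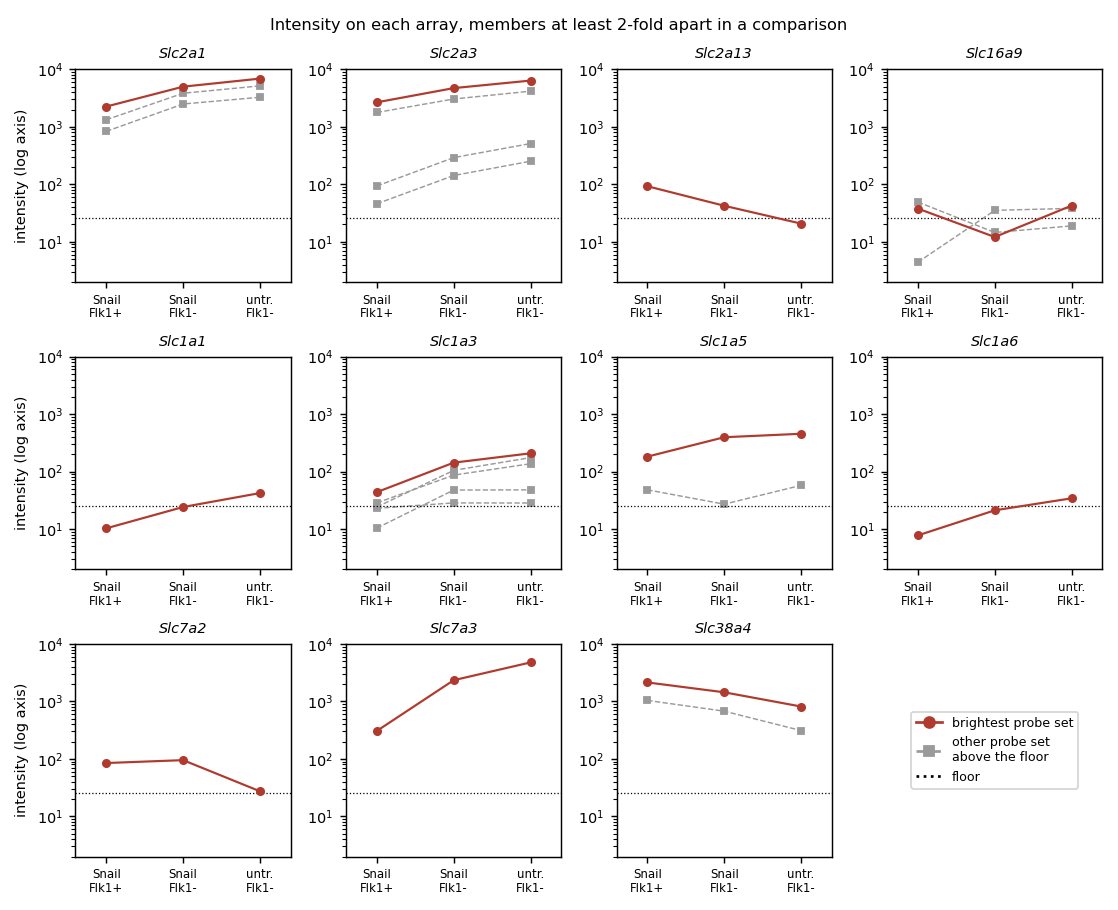
Intensity on a log axis for the 11 genes at least 2-fold apart in at least 1 comparison, with Snail-induced Flk1+, Snail-induced Flk1- and untreated Flk1- arrays from left to right; red circles are the brightest probe set, grey squares other probe sets above the floor on at least 1 array, and the dotted line is the floor of 25.6. Probe sets of Slc2a1, Slc2a3 and Slc38a4 run the same way, while those of Slc16a9 cross. The second Slc1a5 probe set runs opposite to the brightest between the Snail-induced arrays, with log2 differences of 0.66 and -1.08.

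The lactate carriers of the Slc16 family stayed within 2-fold between the Flk1+ and the untreated array by their brightest probe sets. Slc16a1 (MCT1, the widespread lactate and pyruvate carrier) read 1063 in Snail-induced Flk1+ cells, 1458 in Snail-induced Flk1- cells and 1815 in untreated Flk1- cells. Its log2 difference was -0.77 between the Flk1+ and the untreated array, and its second probe set, near the floor, gave -0.28. Slc16a3 (MCT4, the lactate exporter of glycolytic cells) read 369 in Snail-induced Flk1+ cells, 429 in Snail-induced Flk1- cells and 411 in untreated Flk1- cells, with differences between -0.21 and 0.06. Of the 9 measured Slc16 genes, 8 had a negative log2 difference between the Flk1+ and the untreated array by their brightest probe sets. Over all 13969 measured genes 6796 were negative. The family median was -0.28, and the exception was Slc16a6 at 0.63. Among the 8 is Slc16a9, whose probe sets differ in sign.

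Slc16a9 was the single Slc16 gene past 2-fold by the brightest probe sets, and its own probe sets disagreed. The brightest read 37.8 in Snail-induced Flk1+ cells, 12.1 in Snail-induced Flk1- cells and 42.6 in untreated Flk1- cells, so it was at least 1.48-fold higher in Flk1+ than in Flk1- Snail-induced cells and at least 1.67-fold lower in Snail-induced than in untreated Flk1- cells. A second probe set had log2 differences of 1.29 and -0.24 in these 2 comparisons, and the remaining one of -1.68 and -0.09. Between the Flk1+ and the untreated array the 3 probe sets gave -0.14, 1.05 and -1.77. With the mean of its probe sets the first 2 differences were 0.25 and -0.53, under 2-fold.

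The other Slc16 genes were Slc16a4, Slc16a8 (MCT3, a lactate carrier of retinal pigment epithelium), the aromatic amino acid carrier Slc16a10, Slc16a11 and Slc16a13. By the brightest probe sets their log2 differences lay between -0.81, that of Slc16a4 between the Flk1+ and the untreated array, and 0.47, that of Slc16a8 between the Snail-induced arrays. A second Slc16a4 probe set read 34.6 in Snail-induced Flk1+ cells, 12.9 in Snail-induced Flk1- cells and 35.8 in untreated Flk1- cells. It gave -1.01 between the Flk1- arrays, 0.97 between the Snail-induced arrays and -0.04 between the Flk1+ and the untreated array. Slc16a8 read 110 in Snail-induced Flk1+ cells, 76.2 in Snail-induced Flk1- cells and 135 in untreated Flk1- cells. Slc16a5, Slc16a7 (MCT2), Slc16a12 and Slc16a14 were under the floor on all arrays.

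In the Slc1 family all 7 genes were measured, and by the brightest probe sets each had a negative log2 difference in all 3 comparisons, also with quantile normalisation and with arrays centred on their medians. Slc1a1, Slc1a6 and Slc1a7 were under the floor on both Snail-induced arrays, so their sign there is not measured. With values raised to the floor 4 of 7 were negative in that comparison and the median was -0.13. Slc1a1, Slc1a6 and Slc1a7 passed the floor in the untreated array alone, so their negative sign against that array was fixed in advance. Between the Flk1+ and the untreated array 4 of 7 were at least 2-fold lower, beside 6.41% of all genes, and the family median was -1.28. That count was 2 with values raised to the floor (median -0.73), with the mean of all probe sets (median -0.75, 5 genes measured) and with the floor at the 60th percentile (3 genes measured). Between the Snail-induced Flk1+ and Flk1- arrays the family median was -0.77, with 2 of 7 at least 2-fold lower, beside 4.89% of all genes. With the mean of all probe sets 1 of 5 measured genes was lower in that comparison. Between Snail-induced and untreated Flk1- arrays the family median was -0.51, with 0 of 7 lower, beside 2.03% of all genes. The comparisons share arrays, so these counts are not separate evidence.

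Slc1a3 (GLAST, a sodium-coupled glutamate transporter best known from astrocytes) read 43.9 in Snail-induced Flk1+ cells, 143 in Snail-induced Flk1- cells and 208 in untreated Flk1- cells. It was 2.86-fold lower in the Flk1+ array than in the Snail-induced Flk1- array and 4.06-fold lower than in the untreated array. Its 6 probe sets had log2 differences between -2.45 and -0.22 for Flk1+ over untreated cells. The difference between the 2 Flk1- arrays was -0.51 by the brightest probe set.

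Slc1a5 (ASCT2, an exchanger that brings in glutamine) read 182 in Snail-induced Flk1+ cells, 396 in Snail-induced Flk1- cells and 455 in untreated Flk1- cells. It was 2.12-fold lower in the Flk1+ array than in the Snail-induced Flk1- array and 2.43-fold lower than in the untreated array. Its second probe set, dimmer, read 48.2 in Snail-induced Flk1+ cells, 27.1 in Snail-induced Flk1- cells and 57.6 in untreated Flk1- cells. With the mean of both the differences were -0.21 and -0.75, under 2-fold.

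The other glutamate transporters of the family were dim. Slc1a1 (EAAC1) read 10.3 in Snail-induced Flk1+ cells, 24.2 in Snail-induced Flk1- cells and 42.3 in untreated Flk1- cells, at least 1.65-fold lower in the Flk1+ than in the untreated array. Slc1a6 (EAAT4) read 7.76 in Snail-induced Flk1+ cells, 21.2 in Snail-induced Flk1- cells and 34.3 in untreated Flk1- cells, at least 1.34-fold lower. Both were above the floor in the untreated array alone, and with values under the floor set to it their log2 differences were -0.73 and -0.42. By their brightest probe sets, Slc1a2 (GLT-1), Slc1a7 (EAAT5) and Slc1a4 (ASCT1, a serine and alanine carrier) had differences between -0.78 and -0.13; Slc1a4 read 136 in Snail-induced Flk1+ cells, 149 in Snail-induced Flk1- cells and 218 in untreated Flk1- cells. A second Slc1a2 probe set ran the other way, with 45.9 in Snail-induced Flk1+ cells, 13.7 in Snail-induced Flk1- cells and 11.9 in untreated Flk1- cells, and log2 differences of 1.37 for Flk1+ over untreated and 1.26 for Flk1+ over Snail-induced Flk1- cells.

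The Slc1a3 promoter is shown beside that of Slc2a1, since both genes had their lowest reading with Flk1+ cells, past 2-fold from both Flk1- arrays. It holds 1 ACGTG, in capitals, which begins at position 31 after the start, and neither of the other motifs.
Slc1a3, chr15:8710758-8711057, minus strand: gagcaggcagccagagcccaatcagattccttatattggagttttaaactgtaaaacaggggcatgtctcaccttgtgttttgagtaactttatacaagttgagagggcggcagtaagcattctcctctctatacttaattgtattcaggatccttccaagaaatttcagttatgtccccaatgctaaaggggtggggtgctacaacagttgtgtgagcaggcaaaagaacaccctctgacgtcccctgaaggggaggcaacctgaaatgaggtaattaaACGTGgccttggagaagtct

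The largest difference of all 59 genes was that of Slc7a3 (CAT3, a carrier of arginine, lysine and ornithine on the X chromosome). Slc7a3 read 306 in Snail-induced Flk1+ cells, 2338 in Snail-induced Flk1- cells and 4768 in untreated Flk1- cells, by its single probe set. It was 7.44-fold lower in the Flk1+ array than in the Snail-induced Flk1- array and 15.1-fold lower than in the untreated array. In the Snail-induced Flk1- array it was 2.03-fold lower than in the untreated array, just past the threshold. Of 13969 measured genes, 22, Slc7a3 among them, were lower by as much or more between the Snail-induced arrays (0.157%), 18 between Flk1+ and untreated (0.129%) and 262 between the 2 Flk1- arrays (1.88%).

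The cationic amino acid carriers Slc7a2 and Slc7a1 did not share the low Flk1+ reading of Slc7a3. Slc7a2 (CAT2, an arginine carrier of liver and macrophages) read 84.7 in Snail-induced Flk1+ cells, 95.1 in Snail-induced Flk1- cells and 27.3 in untreated Flk1- cells. It was 2.56-fold higher in Flk1+ and 2.84-fold higher in Snail-induced Flk1- than in untreated cells, and both Snail-induced arrays lay above the untreated one. Its other 3 probe sets were under the floor on all arrays, and the mean of its 4 probe sets was under the floor too, so these differences rest on 1 probe set. Slc7a1 (CAT1, the widespread arginine carrier) read 446 in Snail-induced Flk1+ cells, 283 in Snail-induced Flk1- cells and 344 in untreated Flk1- cells. Its log2 differences were 0.64 (Flk1+ over Flk1-, both Snail-induced) and 0.37 (Flk1+ over untreated) by the brightest probe set, and 1.13 and 1.02 by another of similar brightness. Slc7a4, a relative of the cationic carriers, read 126 in Snail-induced Flk1+ cells, 106 in Snail-induced Flk1- cells and 210 in untreated Flk1- cells. Like Slc7a3 it was lower in both Snail-induced arrays than in the untreated one, with -0.69 for Flk1+ over untreated. Unlike Slc7a3 it was not lower in Flk1+ than in Flk1- Snail-induced cells (0.24). Its difference of -0.93 between the 2 Flk1- arrays passed 2-fold with quantile normalisation or centring.

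The heavy chain Slc3a2 (4F2hc, partner of most exchangers below) was nearly level, with 2051 in Snail-induced Flk1+ cells, 1882 in Snail-induced Flk1- cells and 1971 in untreated Flk1- cells. Its log2 differences lay between -0.07 and 0.12. Its light chain Slc7a5 (LAT1, importer of leucine and other large amino acids) read 330 in Snail-induced Flk1+ cells, 322 in Snail-induced Flk1- cells and 386 in untreated Flk1- cells, with differences between -0.25 and 0.03. Slc7a6 and Slc7a7, light chains that exchange cationic for neutral amino acids, had differences between -0.35 and 0.40 by their brightest probe sets. A second Slc7a6 probe set gave 0.68 between the Flk1+ and the untreated array. Slc7a8 (LAT2, another exchanger of neutral amino acids) read 135 in Snail-induced Flk1+ cells, 63.1 in Snail-induced Flk1- cells and 93.2 in untreated Flk1- cells. Its difference of 0.99 between the Snail-induced arrays was just under 2-fold, and it passed with arrays centred, with no offset or with values raised to the floor.

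The kidney heavy chain Slc3a1 read 36.8 in Snail-induced Flk1+ cells, 29.2 in Snail-induced Flk1- cells and 21.0 in untreated Flk1- cells, and its light chain Slc7a9 was under the floor on all arrays. Slc7a11, the light chain of the cystine and glutamate exchanger, read 18.5 in Snail-induced Flk1+ cells, 13.2 in Snail-induced Flk1- cells and 9.80 in untreated Flk1- cells, all under the floor. Slc7a12, Slc7a13 and Slc7a15 were also under the floor throughout. Slc7a10, Slc7a14 and the non-carrier Slc7a6os had log2 differences between -0.56 and 0.41 by their brightest probe sets. A reading under the floor gives only a bound and says nothing of the protein.

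In the Slc38 family of glutamine and neutral amino acid carriers all 9 genes were measured. Between the Flk1+ and the untreated array 1 was past 2-fold, or 11.1%, under the 14.5% of all genes, and none was in the other comparisons. Slc38a4 (SNAT4), which in mouse is imprinted and expressed from the paternal copy, read 2139 in Snail-induced Flk1+ cells, 1441 in Snail-induced Flk1- cells and 815 in untreated Flk1- cells. It was 2.61-fold higher in the Flk1+ than in the untreated array, and its second probe set gave a log2 difference of 1.71 beside 1.38. Its other differences were smaller, 0.57 (Flk1+ over Flk1-, both Snail-induced) and 0.82 (Snail-induced over untreated, both Flk1-), although the second probe set gave 1.10 for Snail-induced over untreated.

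Slc38a4 shares a stretch of chromosome 15 with Slc38a2 and Slc38a1. Slc38a2 (SNAT2, a glutamine and alanine carrier induced when amino acids are short) read 5534 in Snail-induced Flk1+ cells, 4502 in Snail-induced Flk1- cells and 3982 in untreated Flk1- cells, a log2 difference of 0.47 between Flk1+ and untreated. Its other 2 probe sets gave 0.12 and -0.58. Slc38a1 (SNAT1, a glutamine carrier) read 947 in Snail-induced Flk1+ cells, 878 in Snail-induced Flk1- cells and 1052 in untreated Flk1- cells, a difference of -0.15, and its second probe set gave -0.74. All 3 genes were within 2-fold between the Snail-induced arrays and between the Flk1- arrays by their brightest probe sets.

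Slc38a9, a lysosomal arginine sensor that acts on the growth kinase mTORC1, read 112 in Snail-induced Flk1+ cells, 138 in Snail-induced Flk1- cells and 181 in untreated Flk1- cells. Its 7 probe sets had log2 differences between -0.65 and -0.11 for Flk1+ over untreated cells, all under 2-fold. The lysosomal glutamine exporter Slc38a7 was level, at 176 in Snail-induced Flk1+ cells, 174 in Snail-induced Flk1- cells and 178 in untreated Flk1- cells. By their brightest probe sets, Slc38a3 (SNAT3), Slc38a5 (SNAT5), Slc38a6 and Slc38a10 had differences between -0.28 and 0.65. A second Slc38a3 probe set gave -0.97 for Flk1+ over untreated cells and -0.61 between the Flk1- arrays. Slc38a6 read 380 in Snail-induced Flk1+ cells, 419 in Snail-induced Flk1- cells and 264 in untreated Flk1- cells.

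The promoter at the most upstream of the 3 annotated Slc38a4 starts is shown because this gene, like Slc2a13, was higher in the Flk1+ array. Capitals mark CAGGTG on the reverse strand, read as CACCTG, which begins at position -125.
Slc38a4, chr15:97055907-97056206, minus strand: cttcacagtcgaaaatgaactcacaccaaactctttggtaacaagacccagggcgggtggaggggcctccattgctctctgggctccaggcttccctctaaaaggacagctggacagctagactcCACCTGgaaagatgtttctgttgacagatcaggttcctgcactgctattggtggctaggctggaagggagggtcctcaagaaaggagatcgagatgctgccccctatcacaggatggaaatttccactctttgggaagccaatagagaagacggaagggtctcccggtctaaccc
Of the 11 genes past 2-fold, 7 had a promoter in the table. CAGGTG was found in 2 of these, Slc2a13 and Slc38a4, ACGTG in 3, Slc1a3, Slc1a6 and Slc2a1, and TGATGNAA in 0. A gene was counted where any of its promoters held the motif. For Slc38a4, CAGGTG was also found at position -77 from another annotated start, and the remaining start had no match. The shares of all promoters given earlier count each promoter separately, so they are not a background for these gene counts. Matches are descriptions of these windows; binding was not measured.

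**Figure D3:**
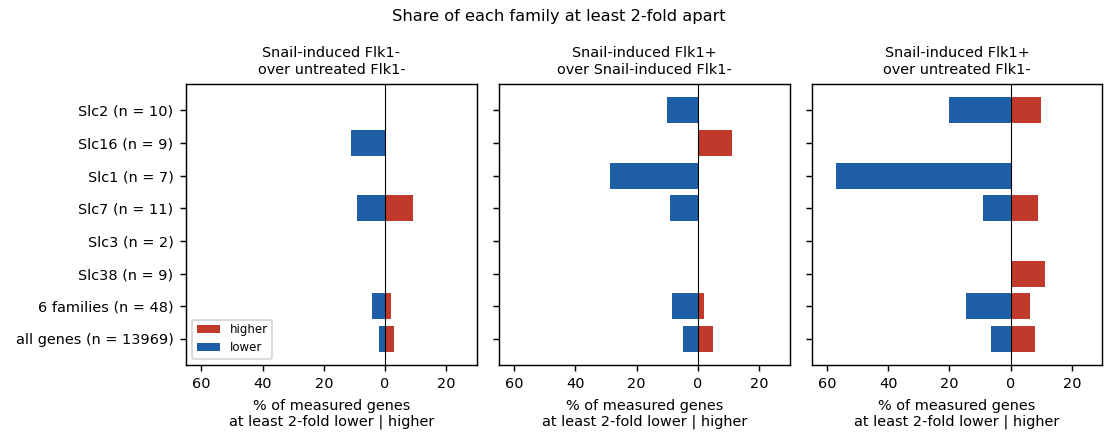
Percent of measured genes at least 2-fold lower (blue, left of 0) or higher (red, right of 0) in each family, in the 6 families together and in all measured genes, for 3 comparisons; n is the number of measured genes. Slc1 has the longest bar, 57.1% lower between the Flk1+ and the untreated array, or 4 of 7 genes. Of these, Slc1a1 and Slc1a6 were above the floor in the untreated array alone, so they could only read lower against it. With values raised to the floor, 2 were at least 2-fold lower.

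Markers of cell types differed between the arrays alongside these genes, and their part in the results was not tested. All 8 endothelial markers were past 2-fold higher with Flk1+ cells, beside 4.85% of all genes against Snail-induced Flk1- and 8.1% against untreated cells. However, Pecam1, Cdh5, Tie1, Flt1, Erg and Emcn were above the floor in the Flk1+ array alone, so they could only read higher there. The 8 summed to 2827 in Snail-induced Flk1+ cells, 186 in Snail-induced Flk1- cells and 184 in untreated Flk1- cells. Of 9 pluripotent epiblast markers 5 were at least 2-fold lower with Flk1+ cells and 0 higher, against Snail-induced Flk1- and untreated cells alike. The shares of all genes at least 2-fold lower were 4.89% and 6.41% in that order. The 9 summed to 11518 in Snail-induced Flk1+ cells, 27692 in Snail-induced Flk1- cells and 25410 in untreated Flk1- cells. The 8 epithelial markers summed to 1905 in Snail-induced Flk1+ cells, 6637 in Snail-induced Flk1- cells and 16545 in untreated Flk1- cells. Slc7a3, Slc2a1, Slc2a3, Slc1a3 and Slc1a5 had their lowest readings in the array in which the summed epiblast and epithelial markers were lowest too. They are named here because they were lowest in the Flk1+ array, so this match was fixed in advance and links nothing. Slc38a4 and Slc2a13 were highest there, as were the epiblast marker Klf4 (765, beside 639 in Snail-induced and 391 in untreated Flk1- cells) and the epithelial marker Krt8 (644, beside 523 and 625).

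Markers of other possible admixtures were read too. The 8 feeder fibroblast markers summed to 490 in Snail-induced Flk1+ cells, 779 in Snail-induced Flk1- cells and 459 in untreated Flk1- cells, with Col1a1, Postn and Fap under the floor throughout. Of the 5 measured, 2 were at least 2-fold higher and 0 lower in Snail-induced than in untreated Flk1- cells, beside 4.98% of all genes past 2-fold either way. Pdgfrb was 2.64-fold higher, with 181 in Snail-induced Flk1+ cells, 204 in Snail-induced Flk1- cells and 71.3 in untreated Flk1- cells, and Dcn was 2.37-fold higher. Dcn read 58.6 in Snail-induced Flk1+ cells, 276 in Snail-induced Flk1- cells and 111 in untreated Flk1- cells, 4.19-fold lower in Flk1+ than in Flk1- Snail-induced cells. Of 11 visceral endoderm markers, Afp, Apoa1, Ttr, Foxa2 and Cited1 were under the floor on all arrays, and the sums were 1826 in Snail-induced Flk1+ cells, 728 in Snail-induced Flk1- cells and 629 in untreated Flk1- cells, a list that holds Sox17, also an endothelial gene, at 1466 in Snail-induced Flk1+ cells, 96.2 in Snail-induced Flk1- cells and 68.3 in untreated Flk1- cells. Cubn, an uptake receptor of visceral endoderm, read 44.0 in Snail-induced Flk1+ cells, 257 in Snail-induced Flk1- cells and 220 in untreated Flk1- cells, 4.99-fold lower in Flk1+ than in Flk1- Snail-induced cells. The 6 red cell markers with a probe set summed to 152 in Snail-induced Flk1+ cells, 120 in Snail-induced Flk1- cells and 136 in untreated Flk1- cells. What these markers contribute to the transporter results was not tested.

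Genes that work with the transporters were read from fixed lists. Of 14 measured genes of monocarboxylate carrier chaperones and lactate and pyruvate enzymes, 2 lay past 2-fold lower and 0 higher between the Snail-induced arrays (14.3%, beside 9.74% of all genes), and 1 lower and 0 higher between the Flk1+ and the untreated array (7.14%, beside 14.5%). Emb (embigin, a chaperone of Slc16 carriers) read 1557 in Snail-induced Flk1+ cells, 3859 in Snail-induced Flk1- cells and 4985 in untreated Flk1- cells, and was 2.47-fold lower in Flk1+ than in Flk1- Snail-induced cells. Bsg (basigin, the main chaperone of MCT1 and MCT4) read 2716 in Snail-induced Flk1+ cells, 3080 in Snail-induced Flk1- cells and 2519 in untreated Flk1- cells, within 2-fold. Ldhb, the lactate dehydrogenase subunit that favours pyruvate, was 2.04-fold lower in Flk1+ than in Flk1- Snail-induced cells, and Ldha read 10978 in Snail-induced Flk1+ cells, 11253 in Snail-induced Flk1- cells and 11574 in untreated Flk1- cells.

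Of 17 measured regulators of glucose uptake and phosphorylation, 2 were at least 2-fold higher and 0 lower between the Flk1+ and the untreated array (11.8%, beside 14.5%). These were the kinase gene Akt1 and Myc, at 2.22-fold and 2.20-fold. Sorbs2, an adaptor protein gene, read 46.0 in Snail-induced Flk1+ cells, 10.7 in Snail-induced Flk1- cells and 43.1 in untreated Flk1- cells, at least 1.80-fold higher in Flk1+ than in Flk1- Snail-induced cells and at least 1.69-fold lower in Snail-induced than in untreated Flk1- cells. Txnip, which promotes removal of GLUT1 from the membrane, read 3029 in Snail-induced Flk1+ cells, 2578 in Snail-induced Flk1- cells and 2143 in untreated Flk1- cells, within 2-fold. The glucose kinase Hk2 read 3128 in Snail-induced Flk1+ cells, 3555 in Snail-induced Flk1- cells and 3200 in untreated Flk1- cells.

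In the ATF4 amino acid response list, 4 of 23 genes lay past 2-fold lower and 1 higher between the Flk1+ and the untreated array, or 21.7% beside 14.5% of all genes, and the median was -0.13. Phgdh, the first enzyme of serine synthesis, read 583 in Snail-induced Flk1+ cells, 1294 in Snail-induced Flk1- cells and 2438 in untreated Flk1- cells, 4.13-fold lower in Flk1+ than in untreated cells. Cth, which makes cysteine, the ATF4 target Trib3, and Cbs were 3.44-fold, 3.62-fold and 2.41-fold lower, and the stress factor gene Atf3 was 7.25-fold higher. Nupr1, a stress-induced gene, read 24.2 in Snail-induced Flk1+ cells, 42.9 in Snail-induced Flk1- cells and 9.53 in untreated Flk1- cells, at least 1.68-fold higher in Snail-induced than in untreated Flk1- cells. Atf4 itself read 1626 in Snail-induced Flk1+ cells, 1712 in Snail-induced Flk1- cells and 1757 in untreated Flk1- cells. Asns, which makes asparagine, read 3116 in Snail-induced Flk1+ cells, 2355 in Snail-induced Flk1- cells and 1789 in untreated Flk1- cells, within 2-fold.

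Of 29 measured genes of amino acid sensing by mTORC1, 2 were at least 2-fold lower and 0 higher between the Flk1+ and the untreated array, or 6.90% beside 14.5% of all genes. Rragd, a Rag GTPase that brings mTORC1 to the lysosome, read 557 in Snail-induced Flk1+ cells, 1968 in Snail-induced Flk1- cells and 2897 in untreated Flk1- cells, 5.13-fold lower in Flk1+ than in untreated cells. Castor2, a relative of the arginine sensor, was 2.38-fold lower. Of 16 enzymes of glutamine, glutathione and arginine metabolism, 2 were lower and 0 higher in that comparison, or 12.5%, again under the 14.5% of all genes. Gsr, which regenerates glutathione, was 3.16-fold lower, and Asl, which makes arginine, was 2.68-fold lower. Arg2, a mitochondrial arginase, read 10.9 in Snail-induced Flk1+ cells, 7 in Snail-induced Flk1- cells and 29.6 in untreated Flk1- cells, at least 1.16-fold lower in Snail-induced than in untreated Flk1- cells.

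**Figure D4:**
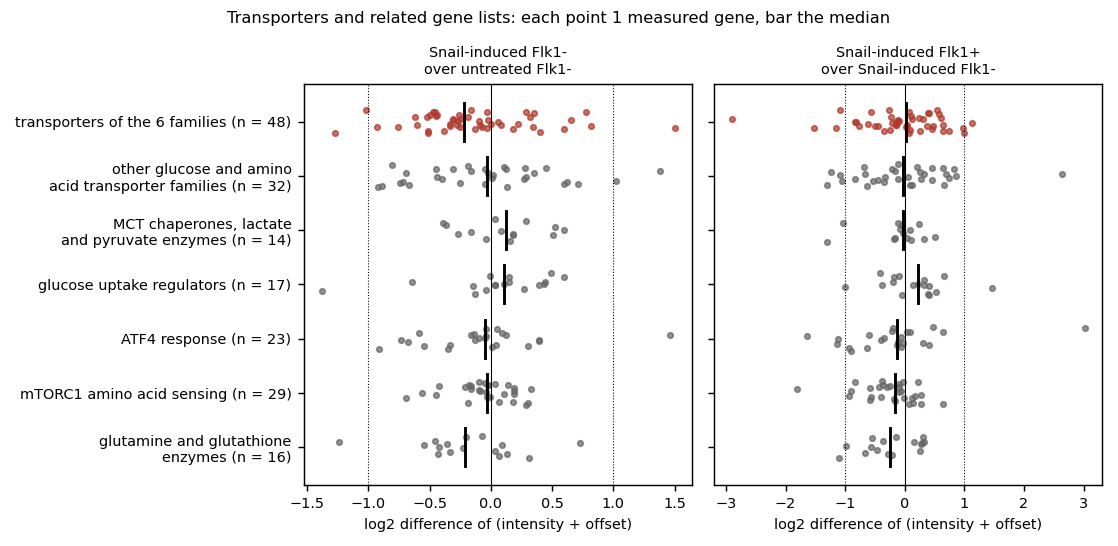
Log2 difference of (intensity + offset) of every measured gene of the 6 transporter families (red) and of 6 related gene lists (grey) in 2 comparisons; each point is 1 gene with random vertical spread, black bars are medians and dotted lines mark 2-fold. The medians lie between -0.25 and 0.23, and Slc7a3, at -2.90 in the right panel, lies farthest to the left.

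In other glucose and amino acid transporter families (Slc5, Slc6, Slc32, Slc36, Slc43, Slc45 and Slc50), 3 of 32 measured genes lay past 2-fold higher and 4 past 2-fold lower between the Flk1+ and the untreated array, or 21.9%, beside 14.5% of all genes and 20.8% of the 6 families described. Slc32a1, the vesicular carrier of GABA and glycine, read 191 in Snail-induced Flk1+ cells, 22.7 in Snail-induced Flk1- cells and 11.8 in untreated Flk1- cells, at least 7.46-fold higher in Flk1+ than in either. Slc43a3 (a purine carrier) read 260 in Snail-induced Flk1+ cells, 164 in Snail-induced Flk1- cells and 57.3 in untreated Flk1- cells, 2.59-fold higher in Snail-induced than in untreated Flk1- cells. Slc36a4, an amino acid carrier, was 2.03-fold higher there. Slc6a15, a carrier of branched neutral amino acids, was 2.35-fold lower in Flk1+ than in Flk1- Snail-induced cells, with 147 in Snail-induced Flk1+ cells, 359 in Snail-induced Flk1- cells and 477 in untreated Flk1- cells. Slc45a4 was 2.19-fold lower and the iodide carrier gene Slc5a5 at least 2.85-fold lower in Flk1+ than in untreated cells. Slc45a3 and the choline carrier gene Slc5a7 were at least 1.98-fold and at least 1.10-fold lower in Flk1+ than in Flk1- Snail-induced cells. No difference between these families and the 6 described was tested.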

How the data were processed

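RNA from 3 sorted cell populations of A2.snail mouse embryonic stem cell progeny was measured with 1 Affymetrix array each; biotinylated cRNA was made from total RNA, per the labels' protocols. The values the authors deposited are 1 intensity per probe set on a linear scale, from 0.5 to 18191. The labels and the table do not name the summary method or the scaling. Array medians differed little, so the columns were used as deposited.

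The 45037 probe sets were named from the platform's annotation, with symbols updated by Entrez ID through a RefSeq gene table (GRCm38.p6); 34945 had 1 symbol, 932 several and 9160 none, and only the first kind was used. Of the first kind, 204 had no match in that table and kept their symbol. All 59 genes described matched it, and 43 had a RefSeq promoter sequence. Each gene took the probe set with the highest mean log2(intensity + offset), with an offset at the 20th percentile of the deposited values. Genes were counted at 2-fold or more, with no test. Named were all genes of the 6 families, Snai1 and Kdr, and list genes past 2-fold, of the marker lists only a few; other list genes (Bsg, Ldha, Txnip, Hk2, Atf4, Asns) were picked after their values were seen. The families, gene lists and rules were chosen with earlier results of these data known. The counting was tested on simulated data. Alternatives were quantile normalisation, centring, the mean of all probe sets, leaving out suffixed probe sets, no floor or one at the 60th percentile, no offset, values raised to the floor, and 3-fold. Python 3.11.15, numpy 2.4.6, pandas 2.3.3 and matplotlib 3.10.9 were used.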

Additional observations from a re-analysis of the deposited data

How the results depend on the processing

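No paired analysis was possible because there was 1 array per group. No gene past 2-fold changed sign under an alternative that measured it. Between Flk1+ and untreated arrays the counts of 3 higher and 7 lower became 1 and 3 at 3-fold. In that comparison Slc1a1, Slc1a5 and Slc7a2 were lost with the mean of all probe sets. Slc1a1 and Slc1a6 were lost with the floor at the 60th percentile or with values raised to the floor. Slc16a4 was gained with values raised to the floor, and Slc16a4 and Slc2a10 with no offset. The median of -0.14 became -0.02 with the mean of all probe sets, with no floor and with the floor at the 60th percentile. Between the Snail-induced arrays, the count of 1 higher became 3 with arrays centred or with no offset, and 2 with no floor or with values raised to the floor. It became 0 with the mean of all probe sets, with the floor at the 60th percentile or at 3-fold. The count of 4 lower became 5 without suffixed probe sets, 6 with no offset and 1 at 3-fold. Between the Flk1- arrays, the count of 1 higher became 2 with no floor or no offset and 0 with the mean of all probe sets or at 3-fold. The count of 2 lower became 3 with quantile normalisation or centring, and 0 at 3-fold. It became 1 with the mean of all probe sets, with the floor at the 60th percentile or with values raised to the floor. Of 282 values of the 11 genes under alternatives, 253 stayed on their side of the threshold, 21 lost it, 13 of them at 3-fold, and 8 gained it. A further 7 calls, of Slc1a1, Slc1a6, Slc7a2 and Slc16a9, were lost because the gene was no longer measured, 28 in all. Genes outside the 11 that reached 2-fold under an alternative were Slc7a4, Slc7a8, Slc16a4, Slc2a10 and, with no floor, Slc16a5 and Slc16a14. Dim genes such as Slc1a1, Slc1a6 and Slc16a9 lie near the floor, where probe sets of 1 gene can disagree. With 1 array a group, differences between cultures or sorts have no error estimate.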
